A study of Mus musculus with 6 samples.

Results

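The 10 genes described here are immediate early genes of the AP-1 and EGR systems, taken by symbol: Fos, Fosb and Fosl2, Jun, Junb and Jund, Egr1 and Egr2, Ier2 and Dusp1. They are 10 of the 24728 gene symbols with FPKM values (fragments divided by the length of the transcript and by the depth of the library). Their RNA was measured by RNA-seq in mouse cells labelled as female germline stem cells (FGSCs) of strain C57BL/6, kept in culture for more than 20 passages. There were 3 control samples and 3 samples with short hairpin RNA knockdown of CTCF (shCTCF), a DNA-binding protein that takes part in chromatin looping. All 6 samples were grown on inactivated STO mouse fibroblast feeders, in medium with 10% serum, 20 ng/mL epidermal growth factor and 10 ng/mL each of basic fibroblast growth factor, glial cell line-derived neurotrophic factor and leukemia inhibitory factor. The hairpin was carried into the cells by a lentivirus and infected cells were selected with puromycin. Whether the control cells received a virus, and how long after the last change of medium the RNA was taken, are not given in the sources used here.

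Immediate early genes are transcribed within minutes of a growth factor, serum or stress signal, from factors that are already present in the cell. Jun proteins pair with each other or with Fos proteins through leucine zippers to form AP-1, which binds DNA at AP-1 sites, and Fos proteins depend on a Jun partner to do so. The EGR proteins are zinc finger factors that bind GC-rich sites, and Dusp1 encodes a phosphatase that switches off the MAP kinases upstream of the same genes. In the germline, the growth factors of the culture medium signal through receptors that feed into these kinases.

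The targeted gene was low on FPKM in every knockdown library. Ctcf was at 58.2, 56.0 and 53.5 FPKM in controls 1, 2 and 3 and at 0.740, 0.550 and 0.629 FPKM in shCTCF 1, 2 and 3. In the deposited counts Ctcf was at 0 in all 6 samples, controls included, so the knockdown was seen on FPKM alone. The germline label was less well met. Of 8 germline markers, Dppa3 and Gfra1 were listed at 0 in all 6 samples, Ddx4, Dazl and Pou5f1 did not exceed 0.182 FPKM, and 2 of the 8 reached a mean of 1 FPKM in each group, Etv5 and Zbtb16 in controls and Etv5 and Ifitm3 in shCTCF. The summed level of the 8 was 19.5 to 19.8 FPKM in controls and 24.9 to 26.2 FPKM in shCTCF. Its members went apart, with mean levels of 17.3 and 14.2 FPKM for Etv5, 1.56 and 0.288 FPKM for Zbtb16, and 0.737 and 10.8 FPKM for Ifitm3, which interferons also induce. Markers of mast and myeloid cells were abundant, with 12 of 18 reaching a mean of 1 FPKM in each group, a sum of 1990 to 2050 FPKM in controls and 2580 to 2770 FPKM in shCTCF, and Fcer1a listed at 0 in all samples. Single markers of this list changed strongly and in both directions. The mean of Ctsg, a granule protease, went from 151 to 2.22 FPKM and that of Cpa3, a mast cell protease, from 281 to 88.0 FPKM, whereas that of Hdc, the histamine-forming enzyme, went from 4.25 to 87.2 FPKM and Csf2rb, a cytokine receptor subunit, was at 188 to 221 FPKM in controls and 583 to 697 FPKM in shCTCF (limma adjusted p = 2.2e-08, 5.1e-05, 2.7e-08 and 2.2e-06). Of 12 tested on FPKM, 5 were higher, 2 lower and 5 not called, which were Gata2, Ptprc, Spi1, Tyrobp and Mcpt8. Mean levels in controls and shCTCF were 501 and 560 FPKM for Gata2, 104 and 115 FPKM for Ptprc, and 63.6 and 66.1 FPKM for Spi1. On counts Spi1 and Mcpt8 were called higher. Of all genes tested, 73.0% were called, 28.8% higher and 44.2% lower, so this list was not called more often than genes in general. Of 16 fibroblast markers that could report the feeder layer, 4 reached a mean of 1 FPKM in each group, though not the same 4, and Col3a1, Lum and Loxl1 were listed at 0, with a sum of 104 to 132 FPKM in controls and 133 to 181 FPKM in shCTCF, most of it S100a4, which other cells also express. Here Dcn went from a mean of 2.71 FPKM to being listed at 0 in each shCTCF sample and Pdgfrb from a mean of 6.09 to 2.16 FPKM, whereas Thy1 went from 0.382 to 2.02 FPKM. All 3 sums were higher in every shCTCF library while their members moved both ways, and the part of cell makeup in the values below was not tested. In bulk RNA, fewer cells of a type and less RNA per cell cannot be told apart. Total counts lay between 1686052 in control 2 and 7044272 in control 3, so control 2 gave the least precise counts. The labels do not say that replicates came from separate cultures, so p-values measure the spread between these samples, which may be technical.

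The sequences just before the starts of Fos, Jun, Junb and Dusp1 are shown because these 4 genes had the largest rises among members that both deposited tables could measure, and because they hold CRE or AP-1-like sequences, which are known from immediate early promoters. They are the 250 bases before the start in RefSeq (GRCm38.p6), read 5′ to 3′ on the strand of the gene, and each was found once in the mm9 genome at the position given. Capitals mark the cyclic AMP response element (CRE, TGACGTCA), its core (TGACG), and the 2 AP-1-like elements of the Jun promoter (TTACCTCA, distal, and TGACATCA, proximal).
Fos, chr12:86814590-86814839, plus strand: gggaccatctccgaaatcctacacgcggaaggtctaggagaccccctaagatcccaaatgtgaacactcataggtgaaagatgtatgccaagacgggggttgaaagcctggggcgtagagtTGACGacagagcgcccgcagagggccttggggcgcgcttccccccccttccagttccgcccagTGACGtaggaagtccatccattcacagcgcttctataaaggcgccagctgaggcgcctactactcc
Jun, chr4:94718914-94719163, minus strand: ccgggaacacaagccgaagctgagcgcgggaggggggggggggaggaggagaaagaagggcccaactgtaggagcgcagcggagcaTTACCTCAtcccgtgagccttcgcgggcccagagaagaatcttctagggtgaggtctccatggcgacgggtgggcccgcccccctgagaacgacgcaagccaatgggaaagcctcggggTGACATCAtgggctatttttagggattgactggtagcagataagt
Junb, chr8:87502648-87502897, minus strand: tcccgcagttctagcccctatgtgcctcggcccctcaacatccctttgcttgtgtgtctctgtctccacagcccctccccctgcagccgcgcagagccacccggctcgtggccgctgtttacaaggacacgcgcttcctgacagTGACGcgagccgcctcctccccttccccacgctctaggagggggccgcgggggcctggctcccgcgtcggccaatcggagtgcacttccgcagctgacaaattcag
Dusp1, chr17:26645418-26645667, minus strand: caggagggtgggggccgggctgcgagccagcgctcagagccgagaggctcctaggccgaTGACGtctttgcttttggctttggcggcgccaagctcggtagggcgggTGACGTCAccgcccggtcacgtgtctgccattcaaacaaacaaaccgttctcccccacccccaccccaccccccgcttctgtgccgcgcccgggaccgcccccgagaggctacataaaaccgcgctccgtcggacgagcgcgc

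RefSeq starts were at hand for 8 of the 10 genes. Egr1 and Ier2, the members that were lower in shCTCF, had none, so the motif counts do not cover them. Windows of 300 bases were searched on both strands in all 27025 genes of the table. They ran from 250 bases before to 50 after the start, the first transcribed base being 1. A full CRE lay at -143 to -136 of Dusp1 and in no other member with a window, compared with 2.03% of all genes. The core, which the full CRE contains on both strands, lay in Fos at -129 to -125 and at -66 to -62, in Junb at -106 to -102, and also in Fosb, Egr2 and Dusp1, thus in 5 of 8 members and in 23.05% of all genes. The proximal and distal Jun elements lay in the Jun window alone among the members (4.18% and 1.03% of all genes). A CArG box, the site of serum response factor, lay at -72 to -63 before the second and the third of 5 annotated Egr2 starts and in the windows of the fourth and the fifth (1.81% of all genes). The EGR site GCGGGGGCG was found in Fosb and Fosl2 (3.31% of all genes) and its form GCGTGGGCG in none of the 8 (0.71% of all genes). The canonical AP-1 site TGACTCA was in none of the 8 windows and in 5.95% of all genes. Of the general elements, the GC box GGGCGG, which can overlap an EGR site, was in 6 of 8 windows (38.2% of all genes), TATAAA in Fos and Junb (15.67%) and CCAAT in Jun, Junb and Egr2 (41.06%). The Jund window held none of the elements searched. Its GC content was 46.7%, lower than in any other member window, and whether the cells use this start was not tested. A match is a run of letters and was not tested for binding.

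**Figure D1:**
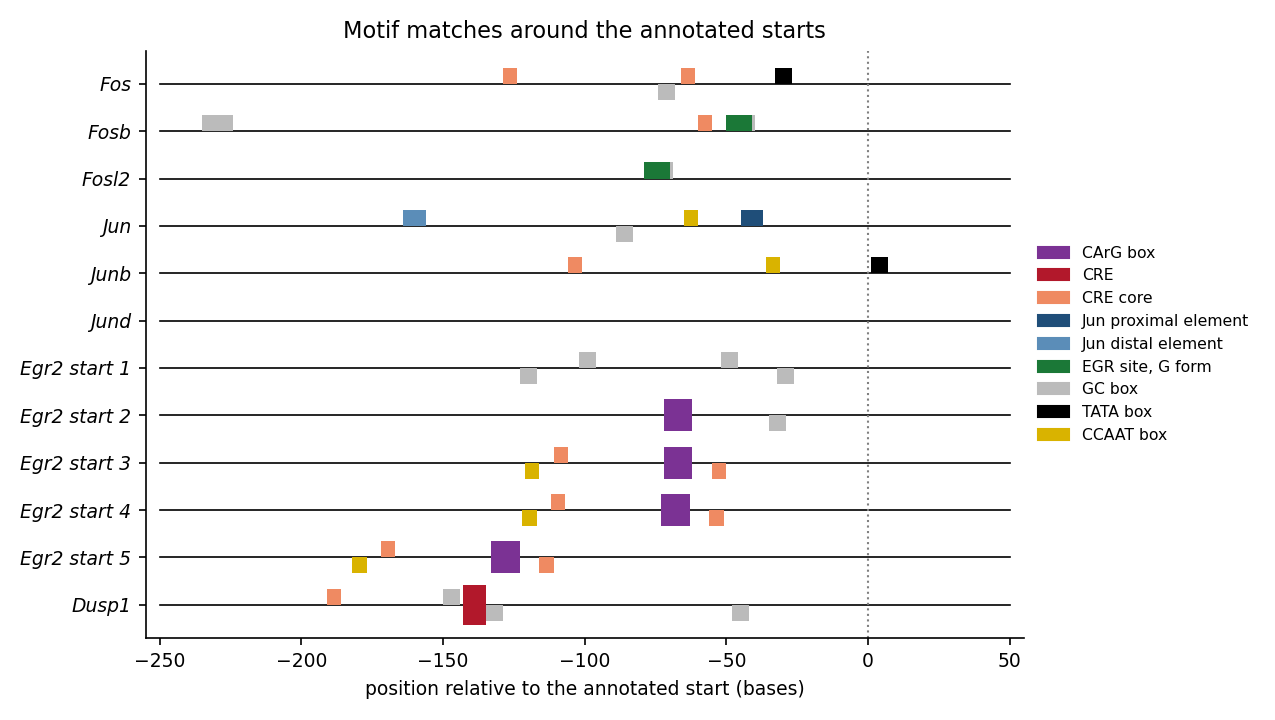
Motif matches in the 12 windows of 8 genes, with position relative to the annotated start in bases on the x axis and 1 line per start. Boxes above a line are matches on the strand of the gene, boxes below it are on the other strand, and taller boxes across the line read the same on both strands; the full CRE of Dusp1 sits at -143 to -136 and the Jund line is empty.

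Of the 10 genes, 9 passed the test on FPKM (limma on log2(FPKM + 1), adjusted by Benjamini-Hochberg over the 9974 genes whose mean reached 1 FPKM, threshold 0.05), where 73.0% of all genes tested did. The share that passed was thus little above the background, since most genes differed between the groups. By direction, 7 of 10 were higher in shCTCF, against 28.8% of all genes tested, and 2 of 10 were lower, against 44.2%. The 10 genes and the related lists below were chosen with earlier results of these data known. Their shares beside the background are therefore a description only. The values of the groups did not overlap for 9 of 10 members and for 76.6% of all genes tested. The median log2 fold change of the members was 1.05, compared with -0.17 for all genes tested. Fosb and Egr2 were under 1 FPKM in controls and passed the filter only through the shCTCF group, so they had to be higher there. They lend no weight to these counts, nor to the median, which lies between their values of 0.95 and 1.15. In the count table, 7 members could be tested (edgeR quasi-likelihood test, adjusted over 7339 genes), without Fosb, Egr2 and Jund. All 7 passed, against 69.1% of all genes tested, with 5 higher (34.8% of all genes tested) and 2 lower (34.3%). The median log2 fold change of the 7 was 1.40, compared with -0.02 for all genes tested. Jund and Fosb had 0 counts in every sample, because each has 2 RefSeq accessions that share exons and the deposited counts leave out fragments that fall on more than 1 accession.

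**Figure D2:**
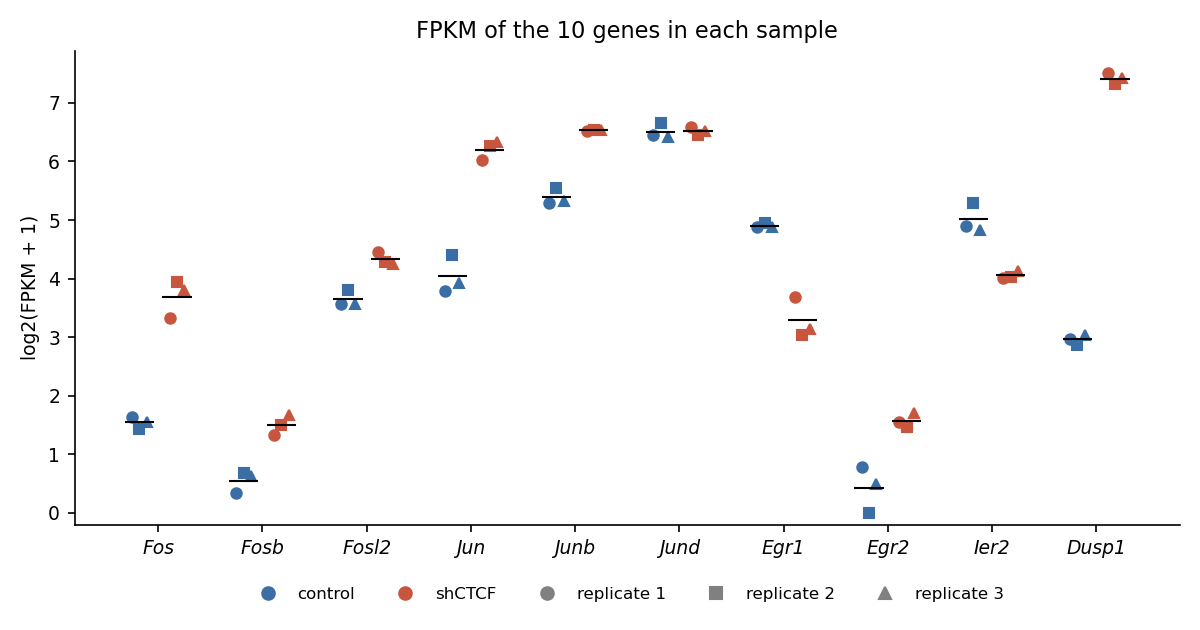
FPKM of the 10 genes in each of the 6 samples, on a log2(FPKM + 1) axis, with controls in blue, shCTCF in red, 1 symbol per replicate number and a line at each group mean. Samples of the 2 groups overlap for Jund alone, and Egr1 and Ier2 are the genes whose controls sit above their shCTCF samples.

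Among the Fos genes the namesake changed most. Fos (NM_010234, chr12:86814840-86818224 in mm9, plus strand, 4 exons) was at 2.12, 1.71 and 1.94 FPKM in controls 1 to 3 and at 9.01, 14.3 and 12.9 FPKM in shCTCF 1 to 3. The lowest shCTCF sample was thus above the highest control. The group means were 1.92 ± 0.202 and 12.1 ± 2.75 FPKM (SD, n = 3), a ratio of 6.29, and the log2 fold change was 2.14 (SE 0.16, limma adjusted p = 1.2e-05). Among all genes tested on FPKM, 3.27% had a higher log2 fold change. In the count table Fos rose from 7.29 ± 1.07 to 48.6 ± 9.81 CPM (counts scaled to the size of the library, SD, n = 3), with a log2 fold change of 2.67 (SE 0.19, edgeR adjusted p = 1.2e-07). The control values rest on 57, 11 and 55 counts, and 5.91% of the genes tested on counts had a higher log2 fold change.

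Fosl2 encodes a Fos protein that is also made in cells without acute stimulation, and its transcript is the longest of the members. Fosl2 (NM_008037, chr5:32438845-32460212, plus strand, 4 exons) was at 10.8, 13.1 and 10.8 FPKM in controls and at 20.8, 18.6 and 18.1 FPKM in shCTCF. The groups did not overlap, but the rise was the smallest among the members that rose on both tables. The log2 fold change was 0.69 on FPKM (SE 0.10, limma adjusted p = 4.4e-04) and 0.94 on counts (SE 0.09, edgeR adjusted p = 2.4e-06), and 17.3% of all genes tested had a higher value on FPKM.

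Fosb, whose gene also yields a shortened protein by alternative splicing, was near the limit of detection. Fosb (chr7:19888045-19895394, minus strand) was at 0.271, 0.596 and 0.552 FPKM in controls and at 1.5, 1.84 and 2.19 FPKM in shCTCF. All shCTCF samples were above all controls. In control 2 the FPKM were assigned to NM_001347586 and in the other 5 samples to NM_008036, so which transcript was measured is uncertain. The log2 fold change was 0.95 (SE 0.16, limma adjusted p = 8.7e-04) and moved to 2.00 with a pseudocount of 0.01 in place of 1.

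The 3 Jun genes started from different levels and were closer to each other in shCTCF. Jun (NM_010591, chr4:94715727-94718913, minus strand, a single exon), the partner of Fos in classical AP-1, was at 12.8, 20.2 and 14.3 FPKM in controls and at 63.8, 76.2 and 79.1 FPKM in shCTCF. Control 2 was the highest control and still lay far under the lowest shCTCF sample. The means were 15.8 ± 3.89 and 73.1 ± 8.12 FPKM (SD, n = 3), with a ratio of 4.64 and a log2 fold change of 2.16 (SE 0.16, limma adjusted p = 1.1e-05). On counts, Jun went from 80.9 ± 19.3 to 434 ± 44.5 CPM (SD, n = 3), a log2 fold change of 2.48 (SE 0.14, edgeR adjusted p = 1.3e-08).

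Junb (NM_008416, chr8:87500808-87502647, minus strand, a single exon) encodes a Jun protein that activates transcription less strongly than Jun in many settings. It was at 38, 45.7 and 39.0 FPKM in controls and at 91.1, 92.05 and 92.2 FPKM in shCTCF. The shCTCF samples were within 2 FPKM of each other and all above the controls. The ratio of the means was 2.24, with a log2 fold change of 1.15 on FPKM (SE 0.08, limma adjusted p = 7.8e-06) and 1.40 on counts (SE 0.08, edgeR adjusted p = 1.3e-08).

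Jund (chr8:73221638-73224515, plus strand, a single exon) encodes the Jun protein that is made most steadily in resting cells. It was at 86.9, 99.5 and 84.8 FPKM in controls and at 95.6, 87.0 and 91.0 FPKM in shCTCF. The highest and the lowest sample were both controls, so the groups overlapped. The log2 fold change was 0.01 with a 95% interval of -0.17 to 0.20 (limma adjusted p = 0.876), which leaves room for a small change in either direction. It is the one member without a call on FPKM, and it could not be measured on counts.

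**Figure D3:**
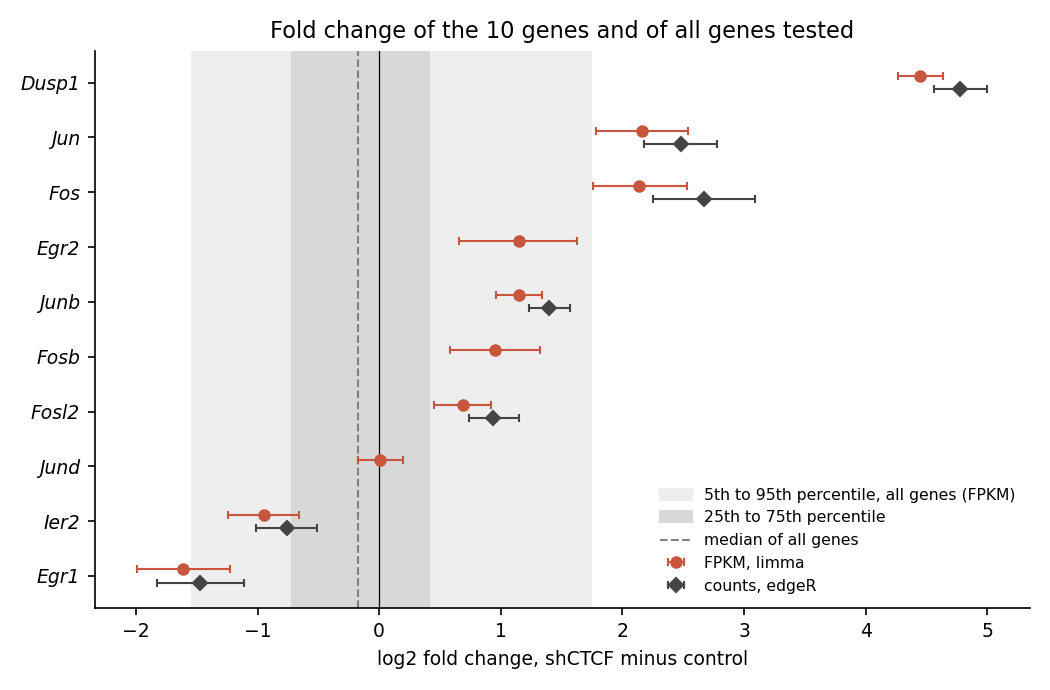
Log2 fold change (shCTCF minus control) of each gene on FPKM (circles, limma) and on counts (diamonds, edgeR), with 95% confidence intervals as bars. Grey bands give the 5th to 95th and the 25th to 75th percentile of the 9974 genes tested on FPKM and the dashed line their median of -0.17. Dusp1, Jun and Fos lie above the wide band on FPKM and Egr1 lies just below it. On counts the 5th to 95th percentile, not drawn, was -1.62 to 3.01, with Dusp1 above it and Fos, Jun and Egr1 inside it.

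Because FPKM are scaled to transcript length, the levels of the 6 AP-1 genes can be set side by side. Their summed level was 151, 181 and 151 FPKM in controls and 282, 290 and 296 FPKM in shCTCF, a ratio of the means of 1.80. The summed Fos genes rose from 13.2, 15.4 and 13.3 FPKM to 31.3, 34.7 and 33.3 FPKM, a ratio of 2.37, and the summed Jun genes from 138, 165 and 138 FPKM to 251, 255 and 262 FPKM, a ratio of 1.74. None of these sums overlapped between the groups, and no test was made on them.

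The make-up of the AP-1 transcripts differed as well. Jund gave 57.6%, 55% and 56% of the summed FPKM in controls and 33.9%, 30.0% and 30.8% in shCTCF. Jun gave 8.5%, 11.2% and 9.42% in controls and 22.6%, 26.3% and 26.8% in shCTCF, and the ratio of Jun to Jund went from 0.148, 0.203 and 0.168 to 0.667, 0.876 and 0.870. Jund thus supplied most of the AP-1 transcripts in each control, and in each shCTCF sample it gave about as much as Junb. Fos stayed a minor part, with 1.40%, 0.947% and 1.28% in controls and 3.20%, 4.94% and 4.38% in shCTCF. The share of Fosl2 overlapped between the groups, at 7.14% to 7.22% in controls and 6.13% to 7.39% in shCTCF. Transcript levels do not give the amounts of the proteins or of their dimers, which were not measured here.

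**Figure D4:**
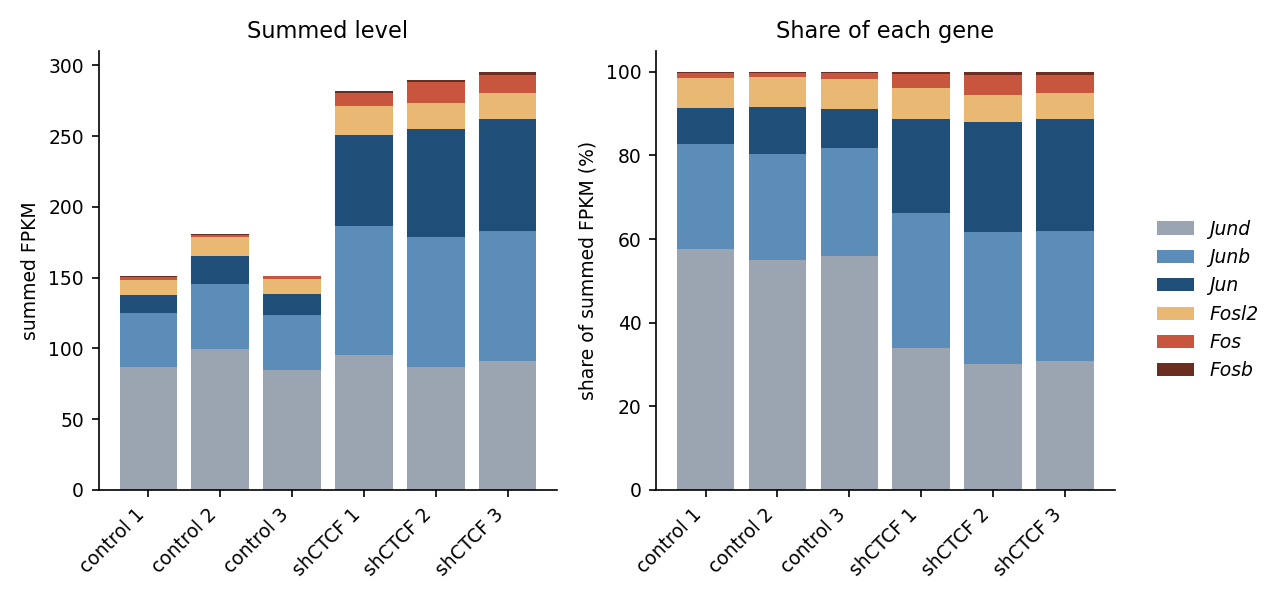
Summed FPKM of the 6 AP-1 genes per sample (left, bars from 0) and the share of each gene in that sum in percent (right). The sum is 151 to 181 FPKM in controls and 282 to 296 FPKM in shCTCF, and the Jund share goes from 55% to 57.6% down to 30.0% to 33.9%.

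Egr1 moved against most of the group. Egr1 (NM_007913, chr18:35020861-35024610, plus strand, 2 exons), the zinc finger factor commonly read as a sign of ERK signalling, was at 28.3, 29.9 and 28.4 FPKM in controls and at 11.9, 7.20 and 7.85 FPKM in shCTCF. The controls were within 2 FPKM of each other, and every shCTCF sample was lower. The means were 28.9 ± 0.849 and 8.98 ± 2.55 FPKM (SD, n = 3), with the control 3.22-fold higher and a log2 fold change of -1.61 (SE 0.16, limma adjusted p = 5.5e-05). On counts the fall was from 148 ± 2.56 to 53.2 ± 17.0 CPM (SD, n = 3), a log2 fold change of -1.47 (SE 0.16, edgeR adjusted p = 6.3e-06). Among all genes tested on FPKM, 4.4% had a lower log2 fold change, and among those tested on counts 6.2% did. The ratio of Jun to Egr1 FPKM was 0.453, 0.676 and 0.501 in controls and 5.36, 10.6 and 10.1 in shCTCF.

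Egr2 encodes a related factor, best known from myelinating Schwann cells and from lymphocytes. Egr2 (chr10:67000617-67004936, plus strand) was at 0.714, 0 and 0.410 FPKM in controls, where control 2 was listed at 0, and at 1.94, 1.75 and 2.25 FPKM in shCTCF. The groups did not overlap, in the direction opposite to Egr1. The log2 fold change was 1.15 (SE 0.21, limma adjusted p = 0.00145) and lost its call with a pseudocount of 0.01 (3.77, limma adjusted p = 0.0546). In the count table Egr2 had 0, 0 and 2 counts in controls and 7, 2 and 13 in shCTCF, which was under the filter on low counts, and its FPKM fell on either of 2 accessions that overlap each other. The level of Egr2 was thus low and uncertain in both groups.

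Ier2 (NM_010499, chr8:87185230-87186751, minus strand, a single exon) encodes a small nuclear protein that is induced together with Fos and Egr1 after growth factor addition. It was at 28.9, 38.2 and 27.6 FPKM in controls and at 15.1, 15.4 and 16.6 FPKM in shCTCF. Control 2 was well above the other controls, and all controls were above all shCTCF samples. The means were 31.6 ± 5.80 and 15.7 ± 0.781 FPKM (SD, n = 3), with a log2 fold change of -0.95 (SE 0.12, limma adjusted p = 2.4e-04) on FPKM and -0.76 (SE 0.11, edgeR adjusted p = 7.6e-05) on counts. Ier2 and Egr1 were the 2 members that fell.

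Dusp1 had the largest change of the 10. Dusp1 (NM_013642, chr17:26642536-26645417, minus strand, 4 exons), the nuclear phosphatase of p38, JNK and ERK, was at 6.84, 6.32 and 7.25 FPKM in controls and at 182, 158 and 170.1 FPKM in shCTCF. Both groups were narrow and far apart. The means were 6.81 ± 0.463 and 170.0 ± 11.7 FPKM (SD, n = 3), a ratio of 25, with a log2 fold change of 4.45 (SE 0.08, limma adjusted p = 1.4e-08). It ranked 49 from the top of the 9974 genes tested on FPKM, with 0.48% of them higher, compared with 2.33% of the genes tested on counts. In the count table it had 157, 38 and 185 counts in controls and 3764, 3015 and 4119 in shCTCF, a log2 fold change of 4.78 (SE 0.10, edgeR adjusted p = 3.7e-12).

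The order of the members by level changed with the knockdown. In controls the order from the top was Jund, Junb, Ier2, Egr1, Jun, Fosl2, Dusp1, Fos, Fosb and Egr2, and the ranges of samples overlapped between Junb and Ier2, Ier2 and Egr1, Jun and Fosl2, and Fosb and Egr2. In shCTCF it was Dusp1, Junb, Jund, Jun, Fosl2, Ier2, Fos, Egr1, Egr2 and Fosb, with overlap between Junb and Jund, Fos and Egr1, and Egr2 and Fosb. Dusp1 went from place 7 to place 1, and from the 71.4 to the 98.5 percentile of all 24728 symbols. Jun went from the 81.1 to the 96.0 percentile and Egr1 from the 88.5 to the 75.7 percentile, whereas Jund was at 96.7 and 96.9. Within the controls, the sample with the smallest library, control 2, was the highest for 7 of 10 members. Without it, 9 members were still called on FPKM and 7 on counts.

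Gene structure and AU-rich ends were not used in the choice by symbol. Jun, Junb, Jund and Ier2 have a single exon, thus 4 of 10 members compared with 9.77% of 20642 genes, whose median exon number is 7. The pentamer ATTTA, found in the AU-rich elements that are known to shorten the life of many immediate early mRNAs, was counted in the longest annotated region after the stop codon (GENCODE vM1). Dusp1 and Fos had 4 each, at 5.80 and 4.91 per kb, Jun had 4 at 3.24 per kb and Junb had 2 at 4.14 per kb, compared with a median of 1.16 per kb over 18374 genes. Fosl2 had 8 in a long region at 1.72 per kb, close to the 1.64 per kb of Egr1, and Ier2 had 0. Fosb, at 0.47 per kb, was under the median of all genes, and Jund and Egr2 were at 1.88 and 2.50 per kb. Dusp1, Fos, Junb and Jun, the densest of the 10, also rose most among the members measured on both tables. Fosb, however, rose at a low density. A relation between density and change was not tested. The longer form TATTTAT was found in Dusp1, Fos, Fosl2, Fosb, Jun and Jund, and in 25.8% of all genes. These are counts of letters, and no mRNA half-life was measured.

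Genes that work with AP-1 were mostly higher in shCTCF. Of 16 other AP-1 and bZIP partners, 13 were tested on FPKM, of which 8 were higher, 1 was lower and 4 were not called, with a median log2 fold change of 1.01 against -0.17 for all genes tested. The 9 of 13 called compare with 73.0% of all genes tested, and for this and the other related lists the background was 28.8% higher and 44.2% lower on FPKM, and 34.8% and 34.3% on counts. Atf3, a bZIP factor induced by stress, was at 3.76, 6.95 and 4.0 FPKM in controls and at 45, 51.6 and 50.1 FPKM in shCTCF (log2 fold change 3.12, limma adjusted p = 3.6e-06). Batf3 and Batf, which pair with Jun proteins in haematopoietic cells, had log2 fold changes of 2.75 and 2.27 (limma adjusted p = 2.3e-05 and 2.3e-06). Creb5, which binds CRE sequences, had one of 2.05 (limma adjusted p = 3.6e-07). The exception was Atf2, a Jun partner that was at 22.0 to 25.8 FPKM in controls and 17.4 to 17.7 FPKM in shCTCF. Fosl1, the remaining Fos gene, was looked up after its values were seen, as was Atf2, and it was at 2.99, 4.13 and 2.39 FPKM in controls and at 12.9, 12.5 and 11.1 FPKM in shCTCF (log2 fold change 1.68, limma adjusted p = 3.5e-05).

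Most of the other immediate early genes tested were higher in shCTCF, as were Fos and Jun. Of 28 listed, 18 were tested on FPKM, with 15 higher, 2 lower and 1 not called, and a median log2 fold change of 1.53. Sgk1 and Trib1, with control means of 0.886 and 0.479 FPKM, passed the filter only through the shCTCF group and had to be higher there. On counts, 12 were tested and 12 were higher, but the 2 genes that were lower on FPKM were not tested there. Btg1, which restrains cell division, went from 30.8 ± 1.91 to 240.0 ± 6.18 FPKM (SD, n = 3, log2 fold change 2.93, limma adjusted p = 3.8e-08). Klf6 and Klf2, zinc finger factors of the Krüppel-like family, had log2 fold changes of 2.45 and 2.51 (limma adjusted p = 1.6e-07 and 6.8e-06), and Sgk1, a serum-induced kinase, had one of 2.61 (limma adjusted p = 7.7e-06). The 2 that were lower, Myc and Per1, and the 1 not called, Nr4a2, are named after their values were seen. Myc was at 172, 208 and 172 FPKM in controls and 128, 132 and 121 FPKM in shCTCF (log2 fold change -0.53, limma adjusted p = 8.8e-04).

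The factors that bind or bridge to immediate early promoters gave a mixed picture. Of 9 genes for serum response factor, its ternary complex partners and the NAB corepressors of EGR proteins, 8 were tested on FPKM, with 1 higher, 3 lower and 4 not called (median 0.06). On counts the tally was the other way, with 3 higher (Elk1, Elk4 and Nab1), 1 lower (Srf) and 2 not called of 6 tested (median 0.33). Srf itself was at 22.8, 25.1 and 22.0 FPKM in controls and at 11.4, 11.6 and 12.6 FPKM in shCTCF, a log2 fold change of -0.92 (SE 0.08, limma adjusted p = 2.9e-05) that also stood on counts (-0.76, edgeR adjusted p = 6.7e-06). The SRF coactivator Mrtfa was called on FPKM (-0.38, limma adjusted p = 0.0101) but not on counts (-0.12, edgeR adjusted p = 0.718). Nab2, itself a known target of EGR factors, was at the edge of the threshold (-0.23, limma adjusted p = 0.0497).

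The kinase cascades that lead to these genes showed no common direction. Of 15 tested genes of the cascade from receptors to ERK, 4 were higher, 4 lower and 7 not called (median -0.06). The receptors listed there, Egfr and Fgfr1, were too low to be tested. Their means in controls and shCTCF were 0 and 0.229 FPKM for Egfr and 0.300 and 0.0443 FPKM for Fgfr1. Of 11 tested genes of the JNK and p38 cascades, 5 were higher, 3 lower and 3 not called (median -0.08). On counts it was 2 higher, 2 lower and 6 not called of 10 tested for the first and 1, 1 and 1 of 3 for the second. Hras rose from 22.9 ± 2.68 to 43.7 ± 1.32 FPKM (SD, n = 3), and Mapk3, which encodes ERK1, fell from 55.2 ± 6.37 to 30.4 ± 1.01 FPKM (SD, n = 3). The ERK-activated kinase Rps6ka1 had a log2 fold change of 0.78 (limma adjusted p = 7.5e-05), and the receptor adaptor Grb2 one of -0.72 on FPKM (limma adjusted p = 1.7e-05), without a call on counts (-0.57, edgeR adjusted p = 0.071). The pair of kinases that activate JNK went apart, Map2k4 with 1.34 and Map2k7 with -0.89 (limma adjusted p = 3.3e-06 and 4.1e-05). Mapk9, which encodes JNK2, and the p38 target kinase Mapkapk2 had log2 fold changes of 0.78 and 0.59 (limma adjusted p = 2.2e-04 and 1.5e-04). Kinase activity was not measured.

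The feedback inhibitors of the same cascades, the group to which Dusp1 belongs by function, were mostly higher. Of 16 listed without Dusp1, 14 were tested on FPKM, with 10 higher, 2 lower and 2 not called (median 0.92), and on counts 10 of 13 were higher and 0 lower (median 1.36). Dusp6, the cytoplasmic ERK phosphatase, was at 7.21, 6.07 and 7.08 FPKM in controls and at 25, 26.1 and 25.1 FPKM in shCTCF (log2 fold change 1.76, limma adjusted p = 1.3e-06). Spry4 and Spred1, inhibitors of Ras to ERK signalling, had log2 fold changes of 1.56 and 1.49 (limma adjusted p = 3.5e-06 and 1.5e-06), and the phosphatase Dusp14 had one of 1.46 (limma adjusted p = 1.1e-04). The 2 that were lower on FPKM, Spry1 and Spred2, belong to the same families and are named after their values were seen, with log2 fold changes of -0.35 and -0.31 (limma adjusted p = 0.0344 and 0.0381). On counts Spry1 was not tested and Spred2 was not called.

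Genes often cited as targets of AP-1 or EGR factors differed in direction. Of 22 listed, 13 were tested on FPKM, with 7 higher, 2 lower and 4 not called (median 0.44), and on counts 9 of 10 were higher and 1 lower (median 1.09). Plaur, the urokinase receptor, was at 11.7, 16.8 and 12.5 FPKM in controls and at 337, 245 and 224 FPKM in shCTCF (log2 fold change 4.2, limma adjusted p = 6.6e-07). The adhesion molecule Icam1 had a log2 fold change of 2.80 (limma adjusted p = 1.4e-07), and the cytokine Tgfb1 and the haem-degrading enzyme Hmox1 had 1.04 and 0.90 (limma adjusted p = 1.2e-05 and 0.00113). The 2 that were lower on FPKM, Cd44 and Fn1, are named after their values were seen, and neither was tested on counts. Fn1, fibronectin, was at 2.11, 2.22 and 2.33 FPKM in controls and did not exceed 0.0294 FPKM in shCTCF, so it passed the filter only through the controls. The targets of a factor in these cells were not measured, and the list rests on general knowledge.

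**Figure D5:**
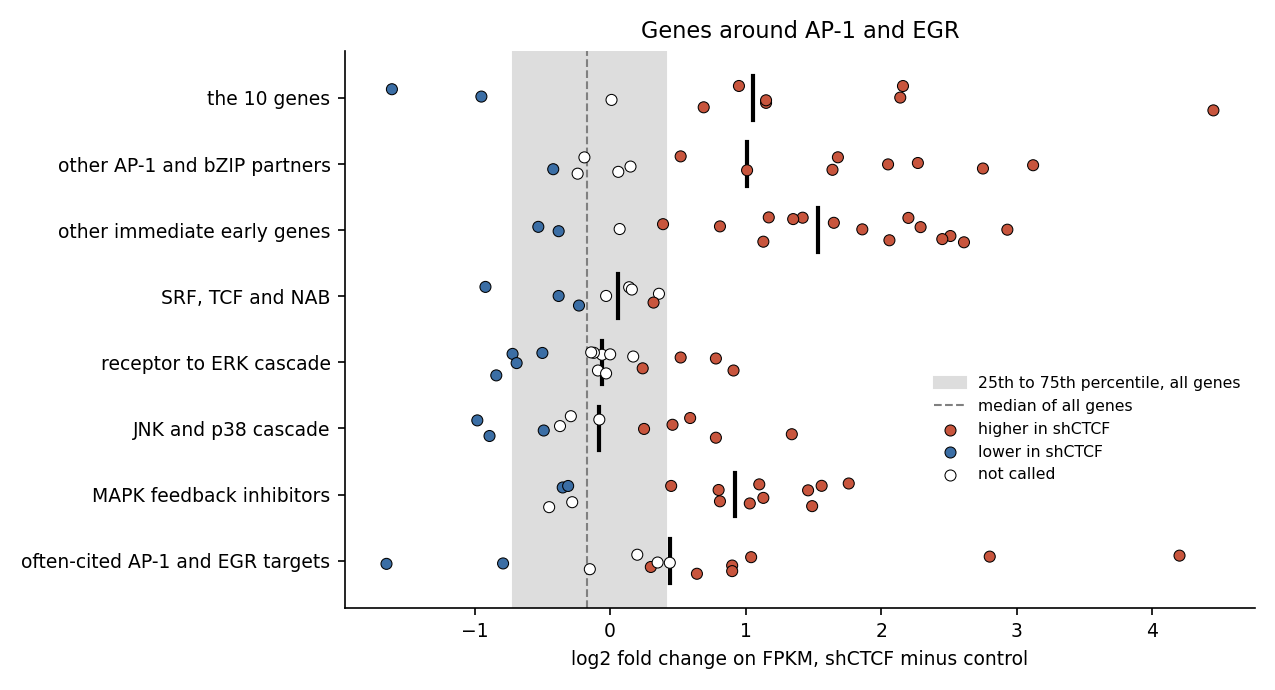
Log2 fold change on FPKM (shCTCF minus control) of the 10 genes and of each tested gene of the 7 related lists, 1 point per gene, with black bars at list medians, red for higher, blue for lower and white for not called at a limma adjusted p of 0.05. The grey band is the 25th to 75th percentile of all genes tested; the medians of the other immediate early genes (1.53), the AP-1 partners (1.01) and the feedback inhibitors (0.92) lie right of it, and those of both kinase cascades lie inside it.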

How the data were processed

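Stranded mRNA libraries were sequenced by the authors and aligned to mm9 with HISAT2. The deposited counts are whole fragments per RefSeq accession, made by the authors with featureCounts 1.6.2 without strand and without normalization, and fragments on more than 1 accession were not assigned. The FPKM were calculated by the authors with Cufflinks 2.2.1. Of the rows, 41181 of 41388 (counts) and 41680 of 41876 (FPKM) were given a symbol with a RefSeq table (GRCm38.p6, names only), and values were summed per symbol. No value column was without a sample (0 columns).

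The test on FPKM used limma 3.58.1 (moderated by eBayes with trend) on log2(FPKM + 1), for genes whose mean over the 6 samples reached 1 FPKM, so that fold changes of low genes are understated. Counts were tested with edgeR 4.0.16 (TMM, filterByExpr, quasi-likelihood, R 4.3.3). P-values were two-sided and adjusted over all genes tested by the Benjamini-Hochberg method. Scripts were tested on simulated data. Total counts were 1686052 to 7044272 per sample, so that 3 counts equal 0.426 to 1.779 CPM, a floor that covers counting error only. The spread within groups exceeded counting noise (chi-square per degree of freedom 2.07 to 8.17). It was largest for control 2, at 8.17 against control 1 and 7.47 against control 3, while controls 1 and 3 were at 2.85. Control 2 thus differed from the other controls by more than its depth accounts for.

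The members and lists were chosen with earlier results of these data known. All members are named, and from each list up to 4 genes with the largest change among those called, with no overlap between groups and at least 5 FPKM in the higher group. Alternatives were pseudocounts, filters, scalings, DESeq2 1.42.0, limma without trend, the highest row in place of the sum, the replicate block and the omission of each sample.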

Additional observations from a re-analysis of the deposited data

How the results depend on the processing

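Over all alternatives, 54 of 54 counts of called genes stayed within 1.5 times the value given, and 225 of 229 single-gene values kept both direction and call. Where most genes tested are called, a margin of 1.5 times is wide, so the first of these figures says little. Egr2 on FPKM lost its call with a pseudocount of 0.01 (3.77, limma adjusted p = 0.0546). Jund, which was not called in any fit and ranged from -0.029 to 0.085 with a sample left out, changed sign without control 1 (-0.011, limma adjusted p = 0.920), without control 3 (-0.029, limma adjusted p = 0.786) and without shCTCF 1 (-0.020, limma adjusted p = 0.865). The Jund value also moved with scaling, to 0.197 with the samples scaled to the same median (limma adjusted p = 0.0706) and to 0.099 with quantile normalization (limma adjusted p = 0.286). With each sample left out in turn, 7 to 9 members were called on FPKM and 7 on counts each time. The 7 on FPKM came without shCTCF 3, when Fosb and Egr2 fell under the filter. In the related lists 67 of 92 genes were called on FPKM (60 to 72 with a sample left out) and 49 of 63 on counts (44 to 50), where 73.0% and 69.1% of all genes tested were called. Scaling the samples to the same median moved the all-gene median on FPKM from -0.17 to -0.01 (log2), and scaling by library size alone moved that on counts from -0.02 to -0.19, with no change in the direction of any member.

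Same-numbered samples of the groups did not deviate together (r between -0.041 and 0.0395), so the values showed no pairing by number. This cannot tell whether same-numbered samples were made or handled together. With the replicate number as a block, 9 members were called on FPKM and 7 on counts, and 64 and 48 genes of the related lists.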

Other observations

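Some relatives of the 10 genes were under 1 FPKM on average and were not tested on FPKM, and they are named after their values were seen. Batf2, a partner of Jun proteins, was listed at 0 in all 3 controls and was at 1.45, 1.51 and 1.41 FPKM in shCTCF. Nr4a3, an immediate early nuclear receptor, was at 0.150, 0.130 and 0.0624 FPKM in controls and at 0.836, 0.737 and 0.591 FPKM in shCTCF, and it was called higher by edgeR on counts. Egr3 overlapped between the groups, at 0.504, 1.33 and 0.538 FPKM in controls and 0.904, 0.436 and 0.586 FPKM in shCTCF, and Egr4 and Arc were listed at 0 in all 6 samples. Klf4 and Btg2 were at 0.143 FPKM or less in every sample, although Klf2, Klf6 and Btg1 of the same families were among the genes that rose. The matricellular genes Ccn1 and Ccn2 did not exceed 0.356 FPKM in any sample and were lower in shCTCF without overlap, Ccn1 at 0.0917, 0.356 and 0.171 FPKM in controls and 0, 0.0545 and 0 FPKM in shCTCF, and Ccn2 at 0.116, 0.150 and 0.181 FPKM in controls and listed at 0 in each shCTCF sample.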
